A study of Mus musculus with 74 samples.

Results

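The 9 genes described here store, take up, export or release iron: Fth1, Ftl1, Ncoa4, Trf, Tfrc, Slc11a1, Slc11a2, Slc40a1 and Hmox1. They were picked by symbol from the 49912 genes of a count table, and each symbol matched 1 protein-coding gene. The counts come from mouse brains in which loss of the microglial receptor gene Trem2 was crossed with feeding of cuprizone, a copper chelator that kills mature oligodendrocytes and strips myelin. Animals were Trem2 -/- (knockout, KO), Trem2 +/- (Het) or Trem2 +/+ (wild type, WT), and each ate chow with 0.2% cuprizone or control chow for 5 or 12 weeks. Each whole brain was dissociated and sorted into viable Cd11b+ cells, called microglia, and all other cells pooled, called nonmicroglia, so that every animal gave 1 library of each fraction. The sources used here give neither the animals' ages nor the design of the knockout allele. At 5 weeks every group held 3 animals. At 12 weeks the KO groups held 3 animals each, the Het groups 4 each and the WT groups 3 on cuprizone and 2 on control chow. Every group had 1 male, and the 37 animals gave 74 libraries of 3' end tags.

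Iron is kept inside cells in ferritin shells built from a heavy chain (Fth1), which oxidises the metal, and a light chain (Ftl1), which helps form the core. Ncoa4 carries ferritin to lysosomes for breakdown. Transferrin (Trf), the extracellular carrier, is made in the brain by oligodendrocytes and choroid plexus. It enters cells through the transferrin receptor (Tfrc), the divalent metal transporters Slc11a2 and Slc11a1 move iron out of endosomes and phagosomes, ferroportin (Slc40a1) is the exporter, and heme oxygenase (Hmox1) frees iron from heme. When iron is scarce, iron regulatory proteins bind a hairpin called the iron-responsive element: in a 5′ UTR the hairpin blocks translation, and in the 3′ UTR of Tfrc it protects the transcript.

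The hairpins are shown because they act on translation or on transcript stability, so that for Fth1, Ftl1 and Slc40a1 a change in protein need not appear in transcript counts. They were read from GENCODE M21 transcripts on GRCm38 as an unpaired C, 5 paired bases, the loop CAGTGN and the pairing strand, with at least 4 of 5 pairs in the lower stem. Capitals mark the loop.
Fth1, 5′ UTR, chr19:9982733-9982759, plus strand: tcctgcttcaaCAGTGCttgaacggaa
Ftl1, 5′ UTR, chr7:45459780-45459806, minus strand: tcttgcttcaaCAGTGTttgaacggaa
Slc40a1, 5′ UTR, chr1:45925466-45925492, minus strand: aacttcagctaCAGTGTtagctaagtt
Tfrc, 3′ UTR, chr16:32631220-32631246, plus strand: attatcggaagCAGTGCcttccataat
Tfrc, 3′ UTR, chr16:32631599-32631625, plus strand: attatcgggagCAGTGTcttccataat
Tfrc, 3′ UTR, chr16:32631664-32631690, plus strand: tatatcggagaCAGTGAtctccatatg
Tfrc, 3′ UTR, chr16:32631711-32631737, plus strand: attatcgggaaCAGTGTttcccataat
The same pattern was found in the 5′ UTR of 6 of 20916 genes (0.0287%) and in the 3′ UTR of 11 of 21039 genes (0.0523%), 3 and 1 of them from the 9 genes. The Fth1 and Ftl1 hairpins share their upper stem, and the 4 Tfrc hairpins lie in 1 UTR. No match in Slc11a2 says only that its annotated UTRs hold no hairpin of this strict pattern. The loop letters may still be there, and a hairpin with a less regular stem would be missed in any of the genes.

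The libraries held 1043961 to 3945694 counts in microglia and 1255465 to 3441041 in nonmicroglia. Trem2 itself had 109 to 250 CPM (counts scaled by the library total to a common depth) in KO microglia and 418 to 989 in WT microglia, although 3' tags may lie outside the deleted part. Summed over 8 genes that mark microglia, the microglia libraries held 15487 to 39475 CPM and the nonmicroglia libraries 322 to 769 CPM. Summed over 10 genes of mature oligodendrocytes they held 234 to 1292 CPM and 6468 to 45034 CPM, and all markers of both lists were detected in both fractions. Along the first principal component 4 of 37 microglia libraries and 2 of 37 nonmicroglia libraries stood apart, from Het control, KO cuprizone and WT control animals (replicates 7674, 981 and 9145) at 12 weeks and a KO control animal (945) at 5 weeks in microglia, and from a Het cuprizone animal (9469) at 12 weeks and a WT control animal (1930) at 5 weeks in nonmicroglia. Each fraction was tested with edgeR's quasi-likelihood test, log2 fold changes are given with their standard errors, and a gene is called at an adjusted p under 0.05 over all genes tested, 14087 in microglia and 16915 in nonmicroglia. All 9 genes passed the filter on low counts in both fractions. In bulk libraries, fewer cells of a type and less RNA per cell cannot be told apart. Groups of 2 to 4 animals can separate by chance, and the share of all genes whose groups did not overlap was not counted.

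Fth1, the ferritin heavy chain, was the only member called for cuprizone in microglia, in WT at both times, in Het at 12 weeks and in the averages over genotypes. The gene lies at chr19:9980598-9985098 on the plus strand (GENCODE M21, GRCm38). After 5 weeks, KO microglia held 1609.9, 2663 and 1526 CPM of Fth1 on cuprizone, against 1641, 1506 and 1791 CPM on control chow. Het microglia held 2749.8, 3787 and 3495 CPM on cuprizone, against 1728, 1880.1 and 1811 CPM on control chow. WT microglia held 4404, 3280.3 and 4384 CPM on cuprizone, against 1576, 1777 and 2388 CPM on control chow. All 6 cuprizone libraries of Het and WT animals lay above all 6 of their controls, whereas in KO animals 1 cuprizone library was high and the other two lay among the controls. The log2 fold change was 1.10 ± 0.23 in WT (edgeR adjusted p = 0.0139), 0.86 ± 0.23 in Het (adjusted p = 0.101) and 0.30 ± 0.23 in KO (adjusted p = 0.85). For Het, 4 of 7 other settings made the call (adjusted p = 0.00206 to 0.139 over the 7). With 1 library left out, 0 of 6 fits made it (edgeR adjusted p = 0.119 to 0.407). Averaged over genotypes it was 0.75 ± 0.13 (edgeR adjusted p = 0.000243). The WT call was lost without cuprizone replicate 2474 or 9144 or control replicate 309 or 1930 (0.97 to 1.04, adjusted p = 0.121 to 0.245).

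After 12 weeks, KO microglia held 2626, 2544 and 1709.6 CPM of Fth1 on cuprizone, against 1527, 1585 and 1612 CPM on control chow. Het microglia held 4151, 3904, 3956 and 3615 CPM on cuprizone, against 1455, 1282, 1598 and 1548 CPM on control chow. WT microglia held 4459.6, 5699 and 4911 CPM on cuprizone, against 2489 and 1475 CPM on control chow. The cuprizone and control libraries did not overlap in any genotype at this time, and the lowest KO cuprizone library was close to its controls. Fth1 rose in WT microglia by 1.48 ± 0.27 on the log2 scale (edgeR adjusted p = 0.00155) and in Het microglia by 1.56 ± 0.20 (adjusted p = 2.25e-07), and in KO microglia the log2 fold change was 0.51 ± 0.23 (adjusted p = 0.657). The average over genotypes was 1.19 ± 0.14 (edgeR adjusted p = 7.07e-09). The difference between the 12-week and the 5-week diet effect was 0.43 ± 0.19 and was not called (edgeR adjusted p = 0.796). The WT result at 12 weeks rests on 2 control animals: without replicate 9145, the control at 1475 CPM that stood apart, the fold change was 1.16 (edgeR adjusted p = 0.307).

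**Figure D1:**
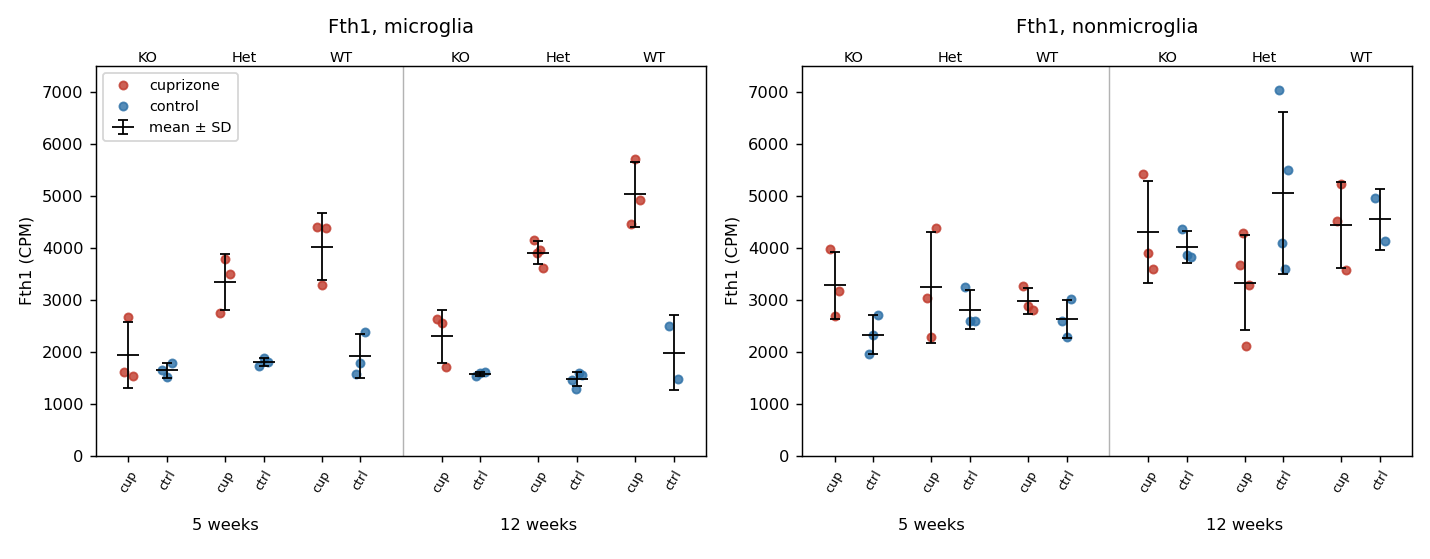
Fth1 in CPM (vertical axis) for each library of microglia and nonmicroglia, by genotype, diet and weeks of feeding, with cuprizone left of control; points are animals and bars are the mean ± SD. WT and Het microglia on cuprizone sit between 2749.8 and 5699 CPM and their controls between 1282 and 2489 CPM, while KO microglia on cuprizone reach 2663 CPM at most.

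Genotype was compared directly on each diet. On cuprizone at 12 weeks KO microglia averaged 2293 ± 507 CPM of Fth1 and WT microglia 5023 ± 627 CPM (SD, n = 3 each), a log2 difference of -1.24 ± 0.23 (edgeR adjusted p = 0.00163). At 5 weeks on cuprizone KO microglia averaged 1933 ± 634 CPM and WT microglia 4023 ± 643 CPM, a log2 difference of -1.01 ± 0.23 that missed the threshold (edgeR adjusted p = 0.0599). That call depends on the setting, since 5 of 7 other settings called it (adjusted p = 4.9e-06 to 0.101 over the 7). With 1 library left out, 1 of 6 fits called it (-1.39 to -0.82). The 3 KO libraries lay below the 3 WT libraries at both times. On control chow the difference was -0.20 ± 0.23 at 5 weeks (edgeR adjusted p = 1) and -0.27 ± 0.26 at 12 weeks (adjusted p = 0.847). Het microglia on cuprizone differed from WT by -0.23 ± 0.23 at 5 weeks (edgeR adjusted p = 1) and -0.31 ± 0.21 at 12 weeks (adjusted p = 0.72). The test of whether the diet effect itself differed between KO and WT gave -0.81 ± 0.32 at 5 weeks (edgeR adjusted p = 1) and -0.97 ± 0.35 at 12 weeks (adjusted p = 0.275), so a difference in response was not called. Ordered by mean, the cuprizone groups ran from KO at 5 and 12 weeks through Het at 5 and 12 weeks to WT at 5 and 12 weeks. KO at the 2 times, and Het at 12 weeks and WT at 5 weeks, differed by less than 1 SD. The 6 control groups, from 1471 ± 139 CPM in Het at 12 weeks (n = 4) to 1982 ± 717 CPM in WT at 12 weeks (n = 2), each lay within the spread of a neighbour in that order.

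Read against the background, 1 of the 9 genes was called in each of 6 microglia comparisons, and it was Fth1 in all of them. The share of all genes called was 0.142% for cuprizone against control in WT at 5 weeks, 0.958% in WT at 12 weeks, 2.55% in Het at 12 weeks, 1.6% averaged at 5 weeks, 2.95% averaged at 12 weeks and 0.44% for KO against WT on cuprizone at 12 weeks. No member was called for the diet in Het at 5 weeks, where 0.277% of genes were, or in KO, where 0.0568% were at 5 weeks and 0.0284% at 12 weeks. None was called for KO against WT on control chow (0.0071% of genes at 5 weeks and 0.0213% at 12 weeks) or on cuprizone at 5 weeks (0.0781%). None was called for Het against WT on cuprizone (0% of genes at 5 weeks and 0.121% at 12 weeks), for the interaction (0.0071% at 5 weeks and 0.0284% at 12 weeks) or for 12 against 5 weeks (0.0071%). The comparison with 0 genes called by edgeR had 600 genes at an unadjusted p under 0.05, and other tools called up to 2. The median log2 fold change of the 9 genes was 0.21 at 5 weeks and 0.33 at 12 weeks in the averages, against -6.5e-05 and 0.0060 over all genes, and 0.25 and 0.46 with Ncoa4, which had groups at 0, set to the upper end.

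Marker sums of the same libraries were set beside the Fth1 values with no test of the sums. Those of the diets overlapped, at 12 weeks only between 26114 and 26416 CPM for the microglial markers. The 8 microglial markers, all detected, summed to 20589 to 37935 CPM on cuprizone and 25546 to 39475 CPM on control chow at 5 weeks, and to 15487 to 26416 CPM and 26114 to 33868 CPM at 12 weeks. The 7 endothelial markers, all detected, summed at 12 weeks to 110.0 to 573 CPM on cuprizone and 62.5 to 229 CPM on control chow, whereas nonmicroglia held 1448 to 3847 CPM. The 8 markers of border macrophages, all detected, summed at 12 weeks to 259 to 1205 CPM on cuprizone and 519 to 1345 CPM on control chow. The Pearson r of Fth1 over the 37 microglia libraries, which share diet groups, was -0.736 with the microglial sum, -0.656 with the border macrophage sum and 0.615 with the endothelial sum. It was 0.602 with the oligodendrocyte precursor sum, -0.567 with the mature oligodendrocyte sum and -0.527 with the astrocyte sum. The remaining marker lists gave -0.306 to -0.146. The part of these cell types in the Fth1 result was not tested.

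Over the 37 microglia libraries, the genes whose log2 CPM tracked Fth1 most closely were Lpl, a lipoprotein lipase, with a Pearson r of 0.893, Ccl6, a chemokine, with 0.882, and Bola2, with 0.882. These libraries share diet and genotype groups, and the values are descriptions.

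In nonmicroglia no comparison called Fth1. On cuprizone the 9 libraries at 5 weeks ran from 2288 to 4380.4 CPM with a median of 3039, and the controls from 1963 to 3238 CPM with a median of 2592. At 12 weeks the 10 cuprizone libraries ran from 2101 to 5419.7 CPM with a median of 3779.5, and the 9 controls from 3581 to 7036 CPM with a median of 4132. The groups overlapped at both times. The averaged log2 fold change was 0.26 ± 0.14 at 5 weeks (edgeR adjusted p = 0.678) and -0.20 ± 0.14 at 12 weeks (adjusted p = 0.773). Fth1 here tracked Rtn4 (r = 0.689), Slc15a4 (0.688) and Mbp (0.686), the last a myelin protein gene of oligodendrocytes.

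Ncoa4 in both fractions and Ftl1 in nonmicroglia were too sparsely counted to follow, and Ftl1 in microglia was low and scattered. Ftl1, the light chain, summed to 1217 counts over the 37 microglia libraries, with 0.687 to 46.1 CPM, and to 156 counts in nonmicroglia, where 21 libraries had none. Across the 17 microglia comparisons its log2 fold change lay between -1.30 and 1.06, and no adjusted p was below 0.587 in edgeR. All 37 microglia libraries held Ftl1 counts. Averaged over genotypes its log2 fold change there was 0.92 ± 0.55 at 5 weeks (edgeR adjusted p = 0.587) and -0.17 ± 0.55 at 12 weeks, neither called. Fth1 summed to 178836 counts in microglia and 255731 in nonmicroglia. The light chain has near-identical pseudogene copies, which drew at most 22 counts in a fraction, and the sources used here do not say how reads that fit several copies were counted. Ncoa4, the ferritin cargo receptor, was at 0 in 22 of 37 microglia libraries and 24 of 37 nonmicroglia libraries, and held at most 21 and 35 counts in any library. No difference in Ncoa4 was detectable at this depth.

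Transferrin (Trf, chr9:103204001-103230444, minus strand) rose in nonmicroglia after 5 weeks of cuprizone in the average over genotypes. KO nonmicroglia held 1407, 1341 and 1602 CPM on cuprizone, against 463, 1059 and 908 CPM on control chow. Het nonmicroglia held 1281, 1225 and 1525 CPM on cuprizone, against 966, 683 and 929.5 CPM on control chow. WT nonmicroglia held 1494, 1308 and 1270.1 CPM on cuprizone, against 709.7, 428 and 881 CPM on control chow. All 9 cuprizone libraries, from 1225 CPM up, lay above all 9 controls, which reached 1059 CPM. Averaged over genotypes the log2 fold change was 0.80 ± 0.15 (edgeR adjusted p = 0.000611). Single genotypes gave 0.80 ± 0.26 in KO (edgeR adjusted p = 1), 0.59 ± 0.26 in Het (adjusted p = 0.935) and 1.02 ± 0.26 in WT (adjusted p = 0.146), none called, and the interaction of diet with KO against WT was -0.21 ± 0.37 (adjusted p = 1).

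At 12 weeks no difference in Trf was called. KO nonmicroglia held 1525, 1251 and 1192 CPM of Trf on cuprizone, against 1242, 788 and 1135 CPM on control chow. Het nonmicroglia held 1598, 1695, 1241 and 1269.7 CPM on cuprizone, against 1200.0, 877, 857 and 1270.2 CPM on control chow. WT nonmicroglia held 966, 1052 and 1261 CPM on cuprizone, against 2288 and 1135 CPM on control chow. The groups overlapped in every genotype, and the WT control at 2288 CPM was the highest library of the fraction. The averaged log2 fold change was 0.03 ± 0.15 (edgeR adjusted p = 1). The change in diet effect from 5 to 12 weeks, -0.78 ± 0.21, was not called (edgeR adjusted p = 0.701). With 1 library left out it ran from -0.92 to -0.57. The value of -0.92 came without nonmicroglia replicate 9145 of the WT controls, which left the library at 2288 CPM as the only WT control at 12 weeks.

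**Figure D2:**
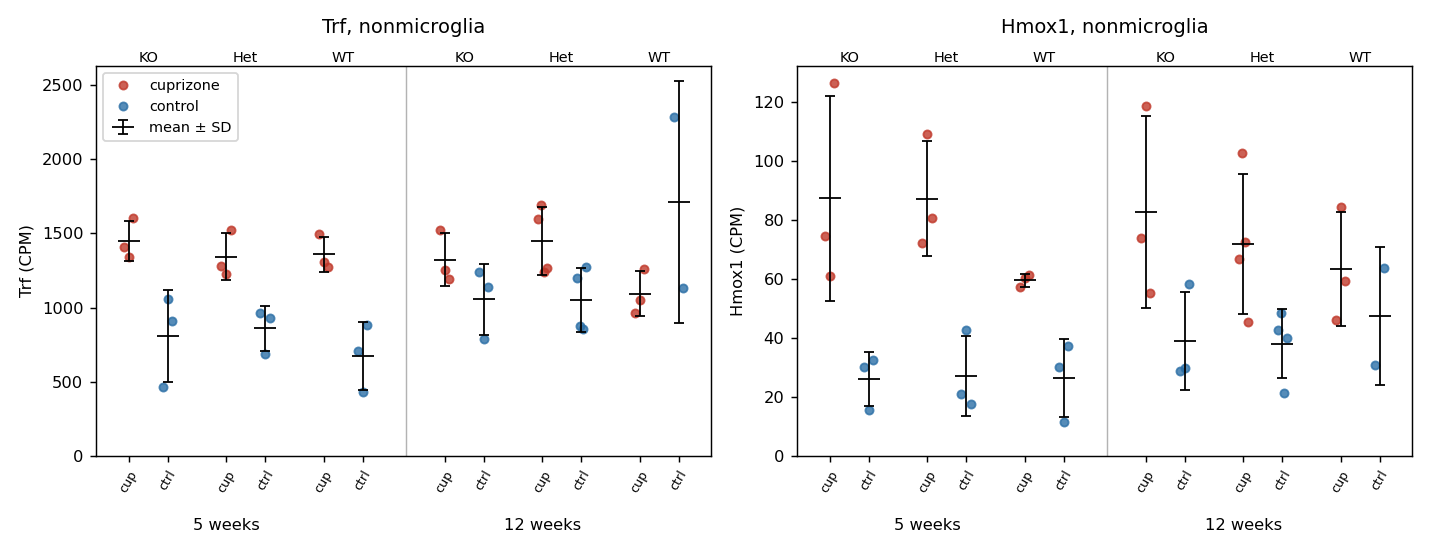
Trf (left) and Hmox1 (right) in CPM for each nonmicroglia library, by genotype, diet (cup, cuprizone; ctrl, control) and weeks; points are animals and bars the mean ± SD. At 5 weeks every cuprizone library lies above every control library, at 1225 CPM or more against 1059 CPM or less for Trf and at 57.1 CPM or more against 42.8 CPM or less for Hmox1; at 12 weeks the groups overlap.

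The oligodendrocyte marker sums of the diets overlapped. At 5 weeks the sum in nonmicroglia ran from 6688 to 19008 CPM on cuprizone and from 6468 to 32583 CPM on control chow, and the sum of 6 ependymal and choroid plexus markers ran from 13185 to 32408 CPM and from 10684 to 32449 CPM. Over both times, Trf divided by the oligodendrocyte sum had a median of 0.0828 on cuprizone (n = 19) and 0.0449 on control chow (n = 18). The 6 astrocyte markers summed at 5 weeks to 3315 to 5079.8 CPM on cuprizone and 5033 to 7152 CPM on control chow, and the 5 precursor markers to 369.7 to 629 CPM and 507 to 889 CPM. All of these markers were detected, and their part in the Trf result was not tested.

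In microglia Trf lay between 301 and 996 CPM in the cuprizone libraries and between 355 and 868 CPM in the controls. Its averaged log2 fold change was -0.11 ± 0.15 at 5 weeks (edgeR adjusted p = 0.942) and 0.33 ± 0.15 at 12 weeks (adjusted p = 0.286). Trf in nonmicroglia tracked Pcbp4 (r = 0.75), Cln8 (0.747), a lysosomal storage disease gene, and Fbxo7 (0.733) over 37 libraries, and in microglia Trim44 (0.758), Lpcat1 (0.733) and Dgkz (0.721).

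The transferrin receptor Tfrc was low in microglia, with a median of 9.47 CPM on cuprizone and 14.5 CPM on control chow, and highly scattered. In WT microglia it was 53.6, 40 and 27.6 CPM on cuprizone and 18.3, 12.1 and 6.05 CPM on control chow at 5 weeks. At 12 weeks it was 18.8, 12.6 and 8.88 CPM on cuprizone and 28.7 and 51.7 CPM on control chow. The WT groups did not overlap at either time and lay in opposite order, with log2 fold changes of 1.98 ± 0.97 (edgeR adjusted p = 0.727) and -1.57 ± 1.03 (adjusted p = 0.583), neither called. KO microglia at 12 weeks also lay below their controls, at 2.59 to 9.47 CPM against 14.1 to 29.9 CPM (-1.59 ± 0.98, edgeR adjusted p = 0.731). KO groups at 5 weeks (-0.10 ± 0.94) and Het groups at 5 and 12 weeks (-0.95 ± 0.95 and 0.17 ± 0.81) overlapped. In nonmicroglia Tfrc had a median of 109 CPM on cuprizone and 93.5 CPM on control chow at 5 weeks, and of 76.1 and 128 CPM at 12 weeks. The averaged log2 fold change there was -0.09 ± 0.23 at 5 weeks (edgeR adjusted p = 1) and -0.66 ± 0.23 at 12 weeks (adjusted p = 0.273), so a fall was not called.

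Slc11a1, the phagosomal metal transporter of macrophages, was near absent from nonmicroglia, with a median of 1.15 CPM over 37 libraries and 0 in 6 of them. In microglia at 12 weeks it was 9.7, 111 and 15.4 CPM in KO on cuprizone, against 53.1, 73.8 and 105 CPM in KO on control chow. WT microglia at that time held 167, 75.9 and 101 CPM on cuprizone, against 43 and 16.3 CPM on control chow. KO and Het groups overlapped and the WT groups, of 3 and 2 animals, did not, and the signs of KO and WT were opposite. The log2 fold change was -1.02 ± 0.65 in KO (edgeR adjusted p = 0.753) and 2.20 ± 0.79 in WT (adjusted p = 0.239), and their difference of -3.21 ± 1.03 was not called (adjusted p = 0.234). Low Slc11a1 went with the libraries that stood apart: 3 of the 4 microglia libraries beyond 30 on the first component held 16.3 CPM or less and the other held 33.3 CPM, and across 37 libraries Slc11a1 and that component had a Pearson r of -0.833. Without those 4 libraries the difference was -2.01 (edgeR adjusted p = 0.706). Slc11a1 tracked Osm (r = 0.895), a cytokine gene, Cmtm3 (0.856) and Llgl1 (0.852), all over the same 37 libraries. The 6 neutrophil markers, a cell type that also expresses Slc11a1, were all detected in microglia libraries at 103 to 7907 CPM in sum, and the correlation of that sum with Slc11a1 was -0.072. The correlation was 0.281 with the monocyte sum, -0.27 with the border macrophage sum and -0.342 with the microglial sum. The part of these cell types in the Slc11a1 values was not tested.

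Slc11a2, the endosomal transporter, showed no call for diet or genotype. Its cuprizone libraries ran from 16.8 to 116 CPM in microglia with a median of 43.2, and the controls from 11.3 to 61.9 CPM with a median of 38.2. In nonmicroglia the medians were 28.1 CPM on cuprizone and 30.8 CPM on control chow. Its averaged log2 fold change in microglia was 0.25 ± 0.32 at 5 weeks (edgeR adjusted p = 0.922) and 0.59 ± 0.32 at 12 weeks (adjusted p = 0.4).

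Ferroportin, Slc40a1, was lower in WT microglia on cuprizone by values but not by test. At 5 weeks WT microglia held 80.2, 77.8 and 94.8 CPM on cuprizone, against 185, 119 and 118 CPM on control chow. At 12 weeks they held 58.2, 27.2 and 51.8 CPM on cuprizone, against 100.3 and 136 CPM on control chow. KO microglia at 12 weeks held 75.7, 113 and 98.1 CPM on cuprizone, against 62.4, 91.7 and 117 CPM on control chow. WT groups did not overlap at either time, and KO and Het groups did. The log2 fold change in WT was -0.72 ± 0.37 at 5 weeks (edgeR adjusted p = 0.735) and -1.26 ± 0.42 at 12 weeks (adjusted p = 0.17), and in KO 0.50 ± 0.37 (adjusted p = 0.839) and 0.04 ± 0.37 (adjusted p = 1). KO differed from WT on cuprizone by 0.97 ± 0.38 at 12 weeks (edgeR adjusted p = 0.379), and the interaction was 1.29 ± 0.56 (adjusted p = 0.401). Het differed from WT on cuprizone by 0.86 ± 0.36 at 12 weeks (edgeR adjusted p = 0.49). The diet log2 fold change in Het was -0.54 ± 0.37 at 5 weeks (edgeR adjusted p = 0.736) and -0.25 ± 0.32 at 12 weeks (adjusted p = 0.817). The WT value at 12 weeks ran from -1.32 to -0.88 over 7 other settings and from -1.57 to -0.80 with 1 library left out. In nonmicroglia Slc40a1 had a median of 33.6 CPM on cuprizone and 38.9 CPM on control chow. In microglia Slc40a1 tracked Cd164 (r = 0.789), Cd33 (0.725), a myeloid receptor gene, and Serinc3 (0.714).

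Hmox1 (chr8:75093621-75100589, plus strand), the heme-degrading enzyme and a stress-response gene, rose in the nonmicroglia average after 5 weeks of cuprizone. KO nonmicroglia held 74.6, 60.8 and 127 CPM on cuprizone, against 30.2, 15.7 and 32.6 CPM on control chow. Het nonmicroglia held 72, 109 and 80.5 CPM on cuprizone, against 21.1, 42.8 and 17.5 CPM on control chow. WT nonmicroglia held 57.1, 60.3 and 61.2 CPM on cuprizone, against 30.3, 11.5 and 37.1 CPM on control chow. All 9 cuprizone libraries lay above all 9 controls. The averaged log2 fold change was 1.5 ± 0.29 (edgeR adjusted p = 0.000808), and no genotype alone was called, with 1.70 ± 0.50 in KO (adjusted p = 0.798), 1.61 ± 0.49 in Het (adjusted p = 0.676) and 1.18 ± 0.50 in WT (adjusted p = 0.831). At 12 weeks the cuprizone libraries ran from 45.5 to 119 CPM and the controls from 21.4 to 63.9 CPM, a log2 fold change of 0.78 ± 0.28 (edgeR adjusted p = 0.299). The change between times was -0.72 ± 0.40 (edgeR adjusted p = 1).

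Trf and Hmox1 made 2 of 9 genes called in the nonmicroglia average at 5 weeks, where 0.443% of all genes were called. None of the 9 was called at 12 weeks in the average (0.497% of genes) or for 12 against 5 weeks (0.00591%). None was called for the diet in WT (0.0414% at 5 weeks and 0.0828% at 12 weeks), in Het (0.0591% and 0.142%) or in KO (0.0296% and 0.0355%). The 8 comparisons of genotype and of interaction called 0% of genes in nonmicroglia by edgeR, with 414 to 1041 genes at an unadjusted p under 0.05, and other tools or settings called up to 13. The median log2 fold change of the 9 genes in the average at 5 weeks lay between -0.12 and 0.26, depending on the end at which Ftl1 and Ncoa4 were set, against 0.045 over all genes.

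The microglial marker sums of the diets also overlapped. The 8 microglial markers in nonmicroglia summed at 5 weeks to 322 to 604 CPM on cuprizone and 377 to 605 CPM on control chow, and Hmox1 divided by that sum had a median of 0.164 on cuprizone and 0.0662 on control chow over both times. The astrocyte sums given beside Trf come from the same libraries and overlapped only between 5033 and 5079.8 CPM at 5 weeks. Over the 37 nonmicroglia libraries, which share diet groups, the Pearson r of Hmox1 was -0.658 with the astrocyte sum and -0.446 with the precursor sum. The part of these cell types in the Hmox1 result was not tested. The genes nearest to Hmox1 over the same libraries were Gdf15 (r = 0.789), a stress-induced growth factor, Atf5 (0.784), a transcription factor of the mitochondrial stress response, and Dct (0.749).

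In microglia Hmox1 was 331, 408, 490.5 and 451 CPM in Het on cuprizone at 12 weeks, against 333, 140.4, 435 and 179 CPM on control chow. The 2 groups overlapped, with a log2 fold change of 0.80 ± 0.27 (edgeR adjusted p = 0.121). The averages were 0.17 ± 0.18 at 5 weeks (edgeR adjusted p = 0.863) and 0.46 ± 0.18 at 12 weeks (adjusted p = 0.184). Hmox1 in microglia tracked Id2 (r = 0.806), Phlda1 (0.789) and Cd63 (0.75), an endosomal tetraspanin gene.

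**Figure D3:**
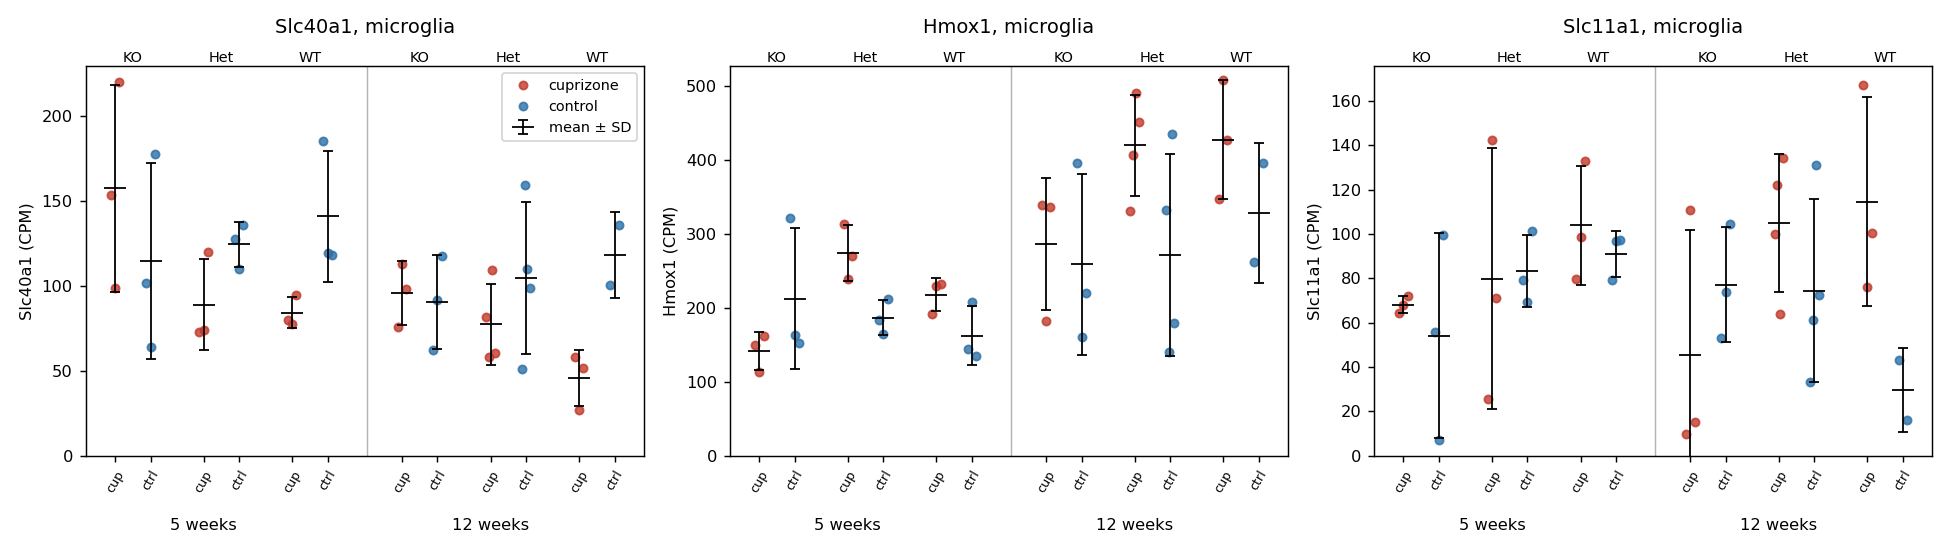
Slc40a1, Hmox1 and Slc11a1 in CPM for each microglia library, by genotype, diet (cuprizone left of control) and weeks; points are animals and bars the mean ± SD. WT Slc40a1 on cuprizone at 12 weeks lies between 27.2 and 58.2 CPM, below the WT controls at 100.3 and 136 CPM, and no difference in the 3 genes was called.

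**Figure D4:**
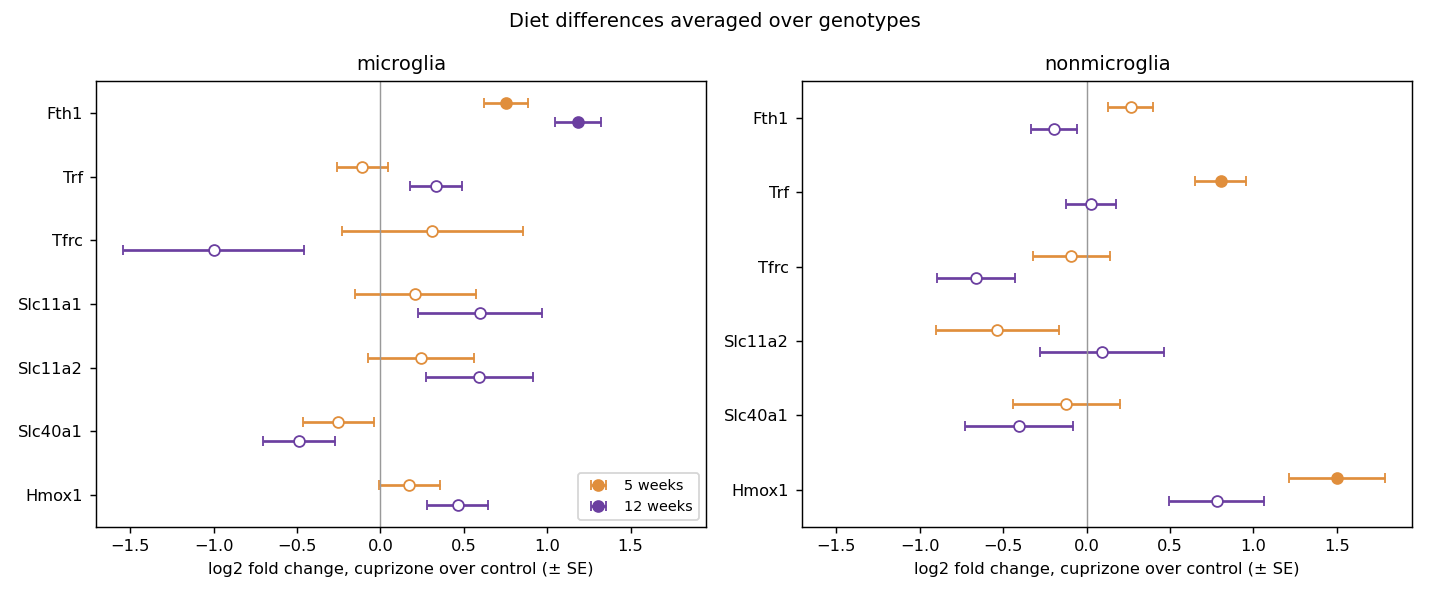
Log2 fold change of cuprizone over control with its standard error for the member genes, averaged over genotypes, in each fraction and week; filled points were called. Fth1 in microglia at both times and Trf and Hmox1 in nonmicroglia at 5 weeks are filled. Ftl1, Ncoa4 and, in nonmicroglia, Slc11a1 are left out because of low counts, although Ftl1 was counted in all 37 microglia libraries.

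The fractions were compared in WT animals, where each animal gave both libraries. Of the 8 genes that passed the filter, 7 were called on cuprizone (5 higher and 2 lower in microglia; 40.8% of all genes were called), and 6 on control chow (4 higher and 2 lower; 35.1% of all genes were called). These shares are high, so a call between fractions is common, and Ncoa4 did not pass the filter. Ftl1 and Slc11a1 passed it only through microglia, where they are high, so their calls follow in part from the filter. The medians of the 8 log2 differences were 0.91 on cuprizone and 1.15 on control chow as fitted, against -0.080 and -0.035 over all genes, and 0.60 and -0.10 with Ftl1 at the low end.

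Fth1 stood on opposite sides of the fractions in the 2 diets. On cuprizone, microglia ran from 3280.3 to 5699 CPM with a median of 4432 and nonmicroglia from 2800.5 to 5227 CPM with a median of 3420.4, and microglia were higher in 5 of 6 animals. On control chow, microglia ran from 1475 to 2489 CPM with a median of 1777 and nonmicroglia from 2277 to 4959.7 CPM with a median of 3012, and microglia were higher in 0 of 5 animals. The log2 difference was 0.54 ± 0.18 on cuprizone (edgeR adjusted p = 0.0227) and -0.64 ± 0.22 on control chow (adjusted p = 0.0274). With the animal as a block the control difference was still -0.64 but no longer called (adjusted p = 0.0518). A test of the change between diets with the animal as a block, added after these values were seen, gave 1.15 ± 0.30 and was not called (edgeR adjusted p = 0.132), nor was any of the other members, where 0.202% of genes were called. The cuprizone call was lost with DESeq2 size factors (0.42, adjusted p = 0.0748) and without nonmicroglia replicate 8043 (adjusted p = 0.0648), and the control call in 4 of 10 fits that left out 1 library, at most 0.133.

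Hmox1, Slc11a1 and Ftl1 were higher in microglia than in nonmicroglia in every WT animal on both diets. Hmox1 averaged 323 ± 126 CPM in microglia and 61.4 ± 12.5 CPM in nonmicroglia on cuprizone (SD, n = 6 each), and 229 ± 106 CPM and 34.7 ± 18.9 CPM on control chow (n = 5 each). The log2 differences were 2.55 ± 0.25 (edgeR adjusted p = 5.87e-08) and 2.82 ± 0.37 (adjusted p = 2.56e-06). Slc11a1 averaged 109 ± 34.8 CPM in microglia and 1.69 ± 1.36 CPM in nonmicroglia on cuprizone, and 66.6 ± 35.8 CPM and 3.81 ± 2.81 CPM on control chow, with log2 differences of 6.24 ± 0.48 (adjusted p = 1.61e-09) and 4.07 ± 0.71 (adjusted p = 8.73e-05) in edgeR. Ftl1 was called on both diets (edgeR adjusted p = 0.00159 and 0.00156). It had 278 counts in microglia and 25 in nonmicroglia on cuprizone and 119 counts and 1 count on control chow, so no fold change is given. Ftl1 and Slc11a1 passed the filter here only through microglia, so their adjusted p-values are descriptions only.

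Tfrc was lower in microglia than in nonmicroglia in every WT animal. On cuprizone it averaged 26.9 ± 17.2 CPM in microglia and 94.2 ± 38.9 CPM in nonmicroglia, a log2 difference of -1.70 ± 0.39 (edgeR adjusted p = 0.00141). On control chow it averaged 23.4 ± 17.9 CPM and 135 ± 47.0 CPM, a log2 difference of -2.67 ± 0.46 (adjusted p = 7.59e-05). Trf was lower in microglia on cuprizone, at 420.1 to 996 CPM against 966 to 1494 CPM in nonmicroglia, by -0.76 ± 0.23 (edgeR adjusted p = 0.0126), and on control chow the difference was -0.41 ± 0.31 (adjusted p = 0.342).

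Slc40a1 was higher in microglia on control chow, at 132 ± 32.5 CPM against 33.6 ± 10.5 CPM in nonmicroglia, with a log2 difference of 2.10 ± 0.36 (edgeR adjusted p = 8.4e-05). On cuprizone the values were 65.0 ± 24.2 CPM and 47.1 ± 24.8 CPM, a difference of 0.67 ± 0.39 (adjusted p = 0.196), and the same block test of the change between diets gave -1.42 ± 0.56 (adjusted p = 0.696). Slc11a2 was higher in microglia on cuprizone, by 1.15 ± 0.40 (edgeR adjusted p = 0.0268), in 5 of 6 animals, and not on control chow (0.20 ± 0.50, adjusted p = 0.816). The cuprizone call was lost with DESeq2 size factors (1.02, adjusted p = 0.0524) and in 5 of 12 fits that left out 1 library.

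**Figure D5:**
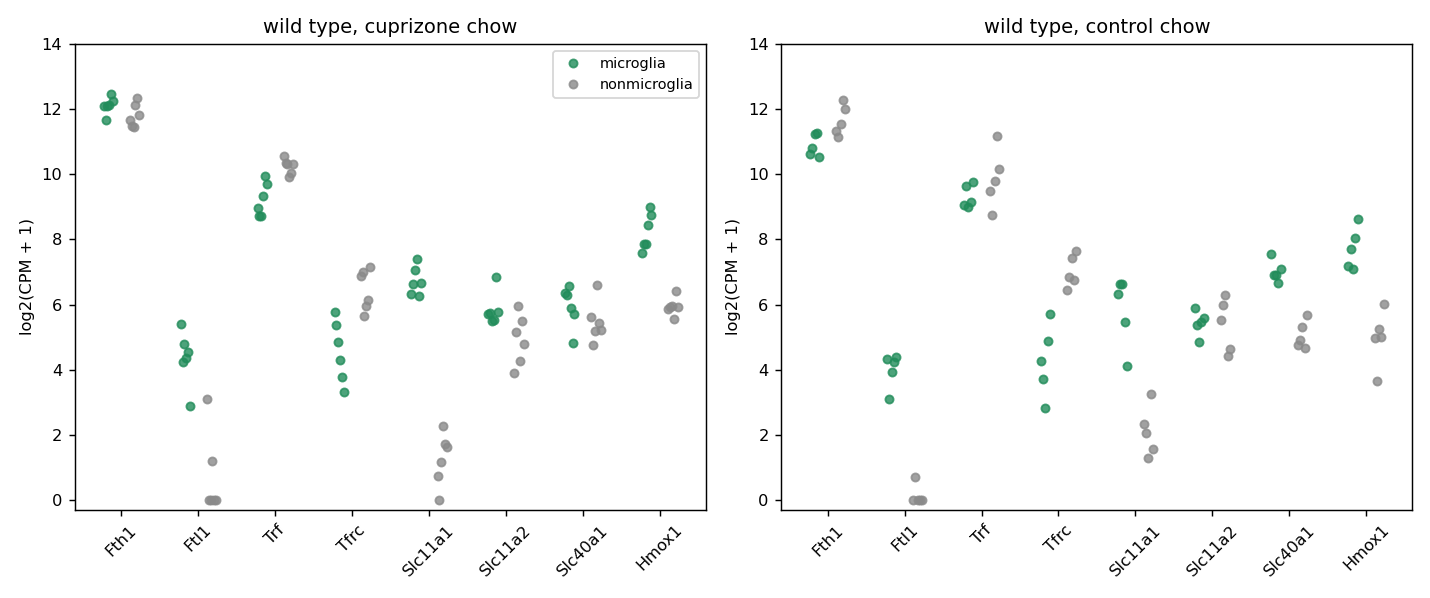
log2(CPM + 1) of 8 member genes in WT animals on cuprizone (left) and on control chow (right), with microglia left of nonmicroglia for each gene; points are libraries, and Ncoa4 is left out because of low counts. Slc11a1, Ftl1 and Hmox1 sit higher in microglia and Tfrc lower, and Fth1 changes order between the panels.

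Of 59 further iron genes in 6 lists (regulation, ferroxidases and reductases, other uptake, heme, mitochondrial iron and iron-dependent cell death), 47 were tested in microglia and 50 in nonmicroglia. For the diet, 1 of 47 was called in the microglia average at 5 weeks, where 1.6% of all genes were, and 2 of 47 in Het microglia at 12 weeks, where 2.55% were. In the nonmicroglia average at 5 weeks 1 of 50 was called, where 0.443% of all genes were, and none in the other diet comparisons. With counts this small the lists are not shown to differ from the background. Cd163, the hemoglobin scavenger receptor, fell in microglia on cuprizone in the average at 5 weeks, to 77.4 to 264 CPM against 200.1 to 581 CPM on control chow, by 1.08 on the log2 scale (SE 0.22, edgeR adjusted p = 0.0013). In Het at 12 weeks it fell by 1.35 (SE 0.33, edgeR adjusted p = 0.00975). At that time KO microglia held 146 to 349 CPM of Cd163 on cuprizone and 137 to 280 CPM on control chow. WT microglia held 133 to 187 CPM and 245 to 398.5 CPM, and neither difference was called. Cd163 also belongs to the border macrophage list, whose sum at 5 weeks was 542 to 1341 CPM on cuprizone and 859 to 1715 CPM on control chow. Slc25a37, the mitochondrial iron importer, fell in Het microglia at 12 weeks by 1.82 (SE 0.45, edgeR adjusted p = 0.0103), at 5.54 to 44.3 CPM on cuprizone and 32.3 to 152 CPM on control chow. The other genotypes did not show this fall at 12 weeks. At 12 weeks Slc25a37 was at 81.7 to 90.8 CPM on cuprizone and 53.7 to 71.0 CPM on control chow in KO. In WT it was at 42.0 to 67.1 CPM and 29.4 to 51.7 CPM, and neither difference was called. At 5 weeks WT microglia held 21.5 to 74.0 CPM of Slc25a37 on cuprizone, below their controls at 99.5 to 109 CPM. The KO and Het groups overlapped at that time, at 26.1 to 95.9 against 73.6 to 86.5 CPM and 34.8 to 76.0 against 54.2 to 98.6 CPM. None of these differences at 5 weeks was called. Slc7a11, the cystine importer, rose in nonmicroglia in the average at 5 weeks by 0.85 ± 0.21 (edgeR adjusted p = 0.0419), at 128 to 342 CPM on cuprizone and 79.4 to 195 CPM on control chow.

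Between fractions in WT animals, 18 of 40 tested genes of these lists were called on cuprizone, 6 higher and 12 lower in microglia, and 15 of 36 on control chow, 5 higher and 10 lower. These shares lie near the background, since 40.8% of all genes were called on cuprizone and 35.1% on control chow. Genes near 0 in either fraction passed the filter only through the other, so their calls follow in part from the filter. Cd163 held 146 ± 38.1 CPM in microglia and 4.23 ± 1.96 CPM in nonmicroglia on cuprizone, and 323 ± 91.0 CPM and 3.49 ± 1.35 CPM on control chow. Epas1, the hypoxia-inducible factor 2 alpha gene, held 21.9 ± 16.1 CPM and 474 ± 60.8 CPM on cuprizone, and 13.5 ± 7.81 CPM and 509 ± 180 CPM on control chow. Id1, a target of bone morphogenetic protein signalling, held 6.41 ± 3.14 CPM and 175 ± 34.4 CPM on cuprizone, and 9.96 ± 7.74 CPM and 246 ± 100.4 CPM on control chow. Heph, a membrane ferroxidase that works with ferroportin, had 0 counts in 6 microglia libraries and 140 in 6 nonmicroglia libraries on cuprizone. The heme transporter gene Flvcr2, the reductase gene Steap2 and the bone morphogenetic protein gene Bmp6 were likewise near 0 in microglia, with 10, 3 and 2 counts against 630, 525 and 309 counts in nonmicroglia on cuprizone.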

How the data were processed

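RNA was measured as 3' end tags in 37 microglia and 37 nonmicroglia libraries, 2 per animal. Brains of perfused mice were dissociated, viable cells were sorted on Cd11b, and libraries were made with QuantSeq 3' FWD in its low-input form, per the labels' protocols. The deposited table holds whole-number counts per gene that the authors made, not normalized; FastQC 0.11.5, STAR, MultiQC, R 3.4.3 and GRCm38.p6 are named, per the submitters' processing notes. The sources used here name no counting tool, annotation release, strand setting or UMI handling.

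Counts were tested in R 4.3.3 with edgeR 4.0.16, each fraction apart: TMM scaling, a filter at a minimum count of 10, 12 group means with sex as a covariate, a robust quasi-likelihood fit and two-sided Benjamini-Hochberg adjusted p-values over all genes, with 17 comparisons a fraction. Averages weight the 3 genotypes equally. Fractions were compared in WT animals with week and sex as covariates. The same animal gave both fractions, so the numbers pair the libraries by design, although per-animal correlations of deviations were only -0.0147 to 0.1101; the animal block was an alternative. Fits that left out 1 library reused the dispersion trend of all libraries, and where they left the WT control group at 12 weeks with 1 animal, that animal was assumed to vary like the others. Alternatives were DESeq2 1.42.0, its size factors, limma 3.58.1 voom with quality weights, no filter, no sex term, pseudogene counts added to Fth1 and Ftl1, the animal block and single libraries left out; the fits without the libraries beyond 30 on the first principal component, and the test of the fraction difference between diets, were added after the data were seen. Steps were tested on simulated data.

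CPM values shown are counts scaled by the library total alone, and precision rests on 2 to 4 animals a group; intervals of counting error are not given. No 2 libraries of a fraction agreed within sampling noise (lowest chi-square per gene 8.56 over 1332 pairs). The 9 genes, the 6 wider iron lists and the 11 marker lists were chosen with earlier results of these data known. All 9 genes are named in each comparison, with up to 4 called genes of the wider lists by fold change, the 3 genes of highest Pearson correlation per member (log2 CPM with a prior count of 2, protein-coding, mean log2 CPM of at least 3) and Trem2. Hairpins were searched in GENCODE M21 transcripts on GRCm38.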

Additional observations from a re-analysis of the deposited data

Results flagged for a closer look

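In 4 of the 36 groups of 4 libraries tested, 1 library lay far from the other three by the ratio of its gap to the group's range. In 3 of the 4 the other three libraries are at 0, where the ratio is 1 whenever the remaining library has any count, so the chance rate of about 1 in 20 groups, which is for continuous values, does not hold for them. Ncoa4 was 13.84 CPM in 1 Het cuprizone nonmicroglia library at 12 weeks and 0 in the other three, and 6.408 CPM in 1 Het control nonmicroglia library at 12 weeks and 0 in the other three. Ftl1 was 5.341 CPM in 1 Het control nonmicroglia library at 12 weeks and 0 in the other three. Slc11a1 was 0 CPM in 1 Het control nonmicroglia library at 12 weeks and 0.5425 to 0.6298 CPM in the other three. All 4 involve genes with few counts in nonmicroglia, where Ncoa4 summed to 145, Ftl1 to 156 and Slc11a1 to 136 counts over 37 libraries.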

How the results depend on the processing

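Over 36 comparisons, the number of the 9 genes called was within 1.5 times that reported in 232 of 248 pairs of a comparison and another setting and in 352 of 362 pairs with 1 library left out. Of the member values called in at least 1 fit, none changed sign between fits. Values called in no fit were not checked for a change of sign. Fth1 in the microglia averages, for KO against WT on cuprizone at 12 weeks and for the diet in Het at 12 weeks, and Trf and Hmox1 in the nonmicroglia average at 5 weeks, were called under all 7 other settings and in every fit with 1 library left out (Fth1 0.63 to 0.82 at 5 weeks and 1.07 to 1.32 at 12 weeks, Trf 0.71 to 0.90, Hmox1 1.38 to 1.68).

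Counts of called members that moved were as follows. For KO against WT microglia on cuprizone at 5 weeks the count was 1 instead of 0 with DESeq2, DESeq2 size factors, voom, no filter and without the libraries that stand apart (0 to 1 with 1 library left out). For the diet in Het microglia at 5 weeks it was 1 instead of 0 with DESeq2, voom, no filter and without those libraries. In Het at 12 weeks it was 2 with voom, which added Hmox1 (1 to 2 with 1 library left out). In WT microglia at 12 weeks it was 2 with DESeq2, which added Slc40a1 (adjusted p = 0.0499), and 2 with no filter, which added Slc11a1 (adjusted p = 0.0277), and 0 without the libraries that stand apart (Fth1 1.09, adjusted p = 0.249) (0 to 1 with 1 library left out); at 5 weeks it was 0 to 1. KO against WT on cuprizone at 12 weeks gave 1 to 2, and the interaction at 12 weeks gave 1 with no filter and 0 to 1 with 1 library left out, in both cases through Slc11a1 without KO cuprizone replicate 9542. In nonmicroglia the diet in KO at 5 weeks gave 1 with DESeq2 (Hmox1, adjusted p = 0.048), the diet in WT at 5 weeks gave 1 with no filter (Trf, adjusted p = 0.0349), and the change between times gave 0 to 1 without 1 library. The cause was not tested.

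With the replicate block (animal), the fraction comparisons called 5 genes on control chow instead of 6, losing Fth1 (adjusted p = 0.0518), and 7 on cuprizone; it changed no other member call. With DESeq2 size factors, Fth1 (0.42, adjusted p = 0.0748) and Slc11a2 (1.02, adjusted p = 0.0524) were not called between fractions on cuprizone. Over all genes, calls moved by more than 1.5 times in most diet comparisons: 25 without the libraries that stand apart to 362 with DESeq2 (135 reported) in WT microglia at 12 weeks, 234 to 679 (415) in the average at 12 weeks, 48 to 193 (62) for KO against WT on cuprizone at 12 weeks, and 75 to 148 (75) in the nonmicroglia average at 5 weeks. Depth limits Ftl1 and Ncoa4 in both fractions and Slc11a1 in nonmicroglia.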
